A study of Mus musculus with 4 samples.

Results

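Solute carriers are membrane proteins that move amino acids, sugars, ions, metals, vitamins and metabolites across the plasma membrane and the membranes of organelles. The array held 172 probe sets for 140 genes of this superfamily, out of 8251 genes. Members were taken from the platform annotation by their symbols, which begin with Slc, a family number, the letter a and a member number, or with Slco. Slc2a1, Slc2a3, Slc3a2, Slc7a5 and Slc27a2 were left out by that rule, and so was 1 probe set assigned to several genes. The symbol rule also takes in 3 genes named after a carrier that encode scaffold or adaptor proteins, Slc9a3r1, Slc9a3r2 and Slc4a1ap.

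Total RNA from feeder-free mouse embryonic stem cells of the E14tg2a line was measured on 4 Affymetrix arrays. Akt cells carried an Akt kinase made constitutively active and were cultured for 4 days in the absence of leukemia inhibitory factor (LIF) or in its presence at 3000 U/ml. Control cells were E14tg2a cells in the same 2 media. Each of the 4 groups was 1 array. The titles name the Akt cells Akt12. The sources used here do not give the Akt isoform, its promoter, whether the cells are 1 clone or whether control cells carry a vector.

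Embryonic stem cells divide fast and depend on imported amino acids, glucose, folate and nucleosides. LIF holds them undifferentiated through STAT3, and Akt signalling promotes nutrient uptake in many cell types. Carriers of the plasma membrane let a solute pass down its own gradient, exchange solutes, or couple uptake to an ion gradient. Most members of the family Slc25 sit in the inner mitochondrial membrane, and those of the families Slc33 and Slc35 in the Golgi and endoplasmic reticulum.

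Values are quantile-normalized intensities, and those under the 40th percentile of all values, 15.8, were set to that floor. By this measure 100 of the 140 genes were above that level on 1 array or more (71.4%, against 75.8% of all genes), 72 on all 4 arrays and 28 on some, and 40 were at the floor throughout. Those 40 included Slc7a11, which exchanges cystine for glutamate, Slc7a1, a cationic amino acid transporter, Slc2a2 and Slc2a4, which carry glucose, and Slc8a1, a sodium-calcium exchanger. By substrate, 9 of the 40 were carriers of bile salts and organic ions, 7 of amino acids and peptides, 2 belonged to the family Slc25 and 1 carried zinc or another metal. On the single arrays, 91 of the 140 members were above the floor without LIF and 85 with it in Akt cells. In control cells 88 were above it without LIF and 86 with it. The shares of all genes were 68.6% and 68.2% in Akt cells and 68.4% and 68.2% in control cells, without and with LIF. Quantile normalization with 1 floor keeps those shares alike, and the member counts were not tested. A difference of at least 2-fold (1 in log2) between arrays is described as higher or lower, and where 1 of the arrays was at the floor the fold is a lower bound. Nothing in a comparison of 2 single arrays can be tested. In a culture, a smaller share of cells of a kind and less RNA per cell cannot be told apart.

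Of the 10 stem cell markers, 9 were above the floor on every array, and Esrrb was at the floor on all 4. Their summed intensity was 7285.5 without LIF and 11553.1 with it in Akt cells, and 4097.7 without LIF and 10888.2 with it in control cells. Of the 5 listed mesoderm markers 3 were on the array, with a sum of 226.2, 103.2, 2230.2 and 417.6 on the arrays in the same order. Of 8 fibroblast markers, 4, 4, 7 and 5 were above the floor (sums 422, 508.2, 862.9 and 430.9), and Postn was at the floor on all 4. For endoderm 4, 5, 3 and 2 of 6 were above it (sums 413.6, 246, 329.3 and 90.9), with Ttr at the floor throughout, for trophoblast 4, 4, 5 and 4 of 5 (712.6, 607.2, 1713.7 and 666.4), and for neuroectoderm 3, 2, 1 and 3 of 4 (111.8, 188.7, 206.5 and 196). Single markers could differ from these sums. In Akt cells, the endoderm marker Dab2 was higher without LIF than with it (282.6 against 75.4). Gata4 (47.7 against 59), Gata6, Sox17 and Afp were lower. The stem cell marker Utf1 was higher without LIF in Akt cells (722.9 against 464). The trophoblast marker Tfap2c was lowest in control cells without LIF (225.7) and highest in Akt cells with LIF (402.9). The part of all these markers in the values below was not tested. The actin 3' to 5' ratio, a measure of RNA integrity, was 2.48, 3.04, 1.66 and 2.33 in that order, and that of Gapdh was 2.46, 3.05, 3.19 and 3.03. Control cells without LIF had the lowest actin ratio and the highest Gapdh ratio, and the part of RNA integrity was not tested either.

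Most carriers spanned less than 2-fold over the 4 arrays (55 of the 72 measured on every array). Among the 72 members above the floor on all 4 arrays, the median distance from the lowest to the highest array was 1.63-fold, against 1.6-fold over all 5027 such genes, and 17 members (23.6%) spanned 2-fold or more, against 25.6% of all genes. Of the 72, 2 spanned 4-fold or more, Slc6a15 and Slco5a1. In all, 21 members were at least 2-fold different in 1 or more of the 4 comparisons, 10 of them in exactly 1. The share of all genes was not counted for a 4-fold span or over the 4 comparisons together, so these counts have no background beside them.

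**Figure D1:**
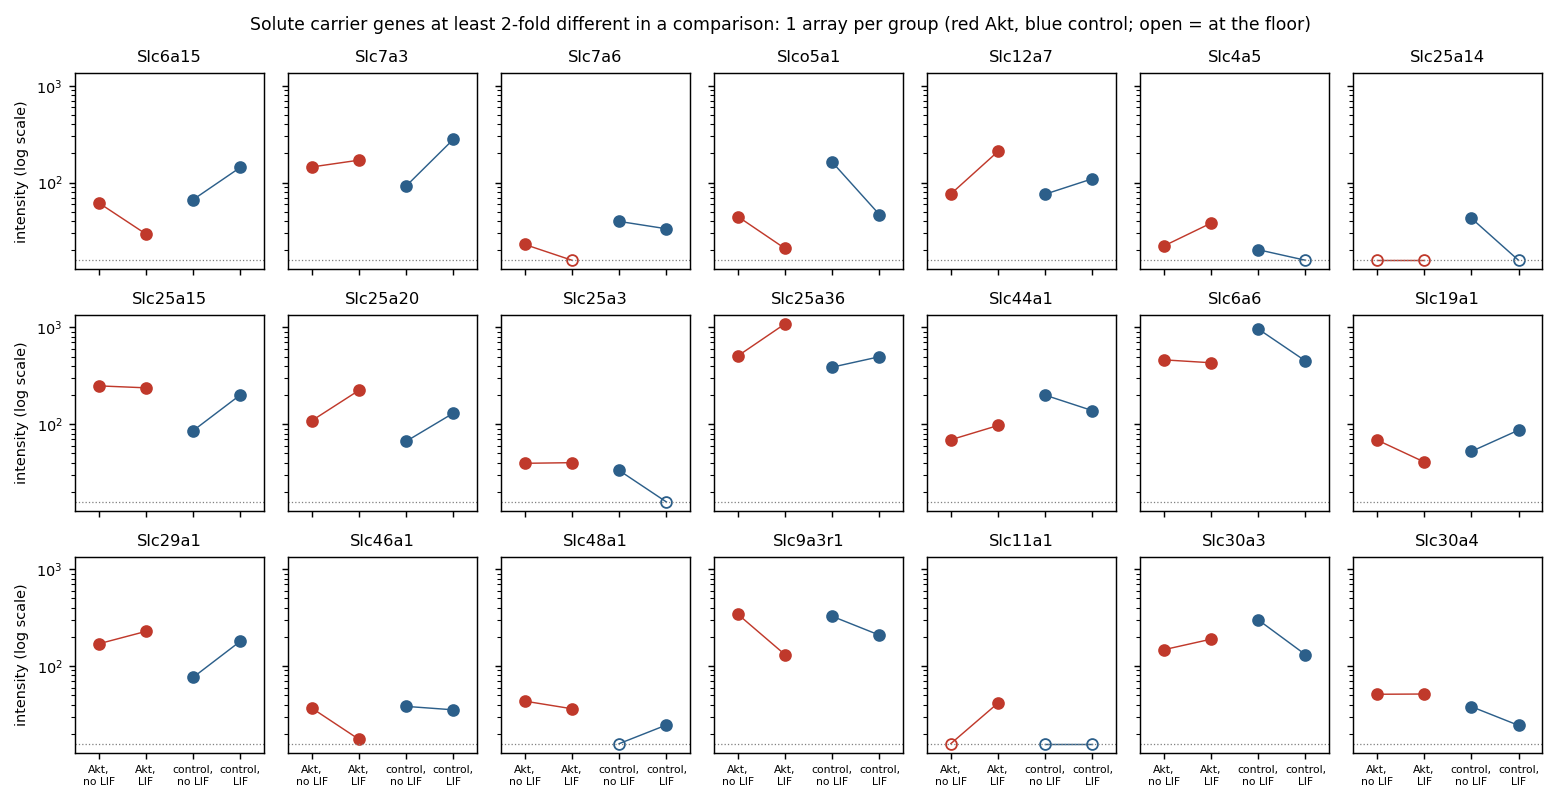
Normalized intensity on a log axis for the 21 solute carrier genes at least 2-fold different in a comparison, 1 point per array (Akt cells red, control cells blue, without LIF left of with LIF; open points lie at the floor of 15.8, drawn as a dotted line). Slc6a15 slopes in opposite directions in the lines, and Slco5a1 in the same direction.

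LIF withdrawal in Akt cells was accompanied by 4 of 96 measured members at least 2-fold higher, beside 3.01% of all genes, and 4 lower, beside 3.65%. The higher members were the scaffold gene Slc9a3r1 (2.62-fold), Slco5a1 (2.14-fold), the folate transporter gene Slc46a1 and the amino acid transporter gene Slc6a15 (2.1-fold each). The lower ones were the potassium-chloride cotransporter gene Slc12a7 (2.75-fold), Slc11a1 (at least 2.63-fold), Slc25a36 (2.15-fold) and Slc25a20 (2.06-fold). The median log2 difference was 0.05 for members and 0.01 for all genes. Scaled to the spiked hybridization controls, which moved the median of all genes to -0.16, 1 member was higher and 4 were lower, beside 1.86% and 5.71% of all genes under that scaling. The member just outside the limit was Slc39a6, at a log2 difference of 0.99.

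In control cells, LIF withdrawal was accompanied by 5 of 92 members higher, beside 7.39% of all genes, and 4 lower, beside 6.4%. Slco5a1 (3.48-fold), the zinc transporter gene Slc30a3 (2.29-fold) and the taurine transporter gene Slc6a6 (2.14-fold) were higher, as were Slc25a14 (at least 2.72-fold) and Slc25a3 (at least 2.12-fold). The lower genes were Slc7a3 (3.04-fold), Slc29a1 (2.36-fold), Slc25a15 (2.34-fold) and Slc6a15 (2.15-fold), which carry cationic amino acids, nucleosides, ornithine and neutral amino acids. The median was -0.02 for members and -0.03 for all genes. Scaled to the hybridization controls, 4 were higher and 5 lower, beside 6.75% and 7.84% of all genes. Without that scaling, Slc16a1 lay just outside the limit, at -0.98.

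Akt cells with LIF had 5 of 96 members higher than control cells with LIF, beside 3.5% of all genes, and 5 lower, beside 3.64%. Higher were Slc11a1, Slc25a3 and Slc4a5, whose control value was at the floor (at least 2.63-fold, 2.55-fold and 2.42-fold), Slc25a36 (2.19-fold) and Slc30a4 (2.1-fold). Lower were Slc6a15 (4.88-fold), Slco5a1 (2.24-fold), the folate transporter genes Slc19a1 (2.13-fold) and Slc46a1 (2.02-fold) and Slc7a6 (at least 2.11-fold). The hybridization control scaling, under which the median of all genes was 0.13, gave 6 higher and 3 lower, beside 4.89% and 2.83% of all genes. Without that scaling, the median was -0.02 for members and 0.01 for all genes, and Slc12a7 lay just outside the limit, at 0.94.

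Without LIF, 3 of 95 members were higher in Akt cells than in control cells, beside 5.87% of all genes, and 5 were lower, beside 8.12%. Slc25a15 (2.9-fold), the haem transporter gene Slc48a1 (at least 2.75-fold) and Slc29a1 (2.22-fold) were higher. Slco5a1 (3.64-fold), the choline transporter gene Slc44a1 (2.88-fold), Slc25a14 (at least 2.72-fold), Slc6a6 (2.08-fold) and Slc30a3 (2.03-fold) were lower. The median was 0.10 for members and 0.06 for all genes, and Slc30a9 lay just outside the limit, at -0.90. The comparisons share arrays, so the same array can place a gene in several of them.

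**Figure D2:**
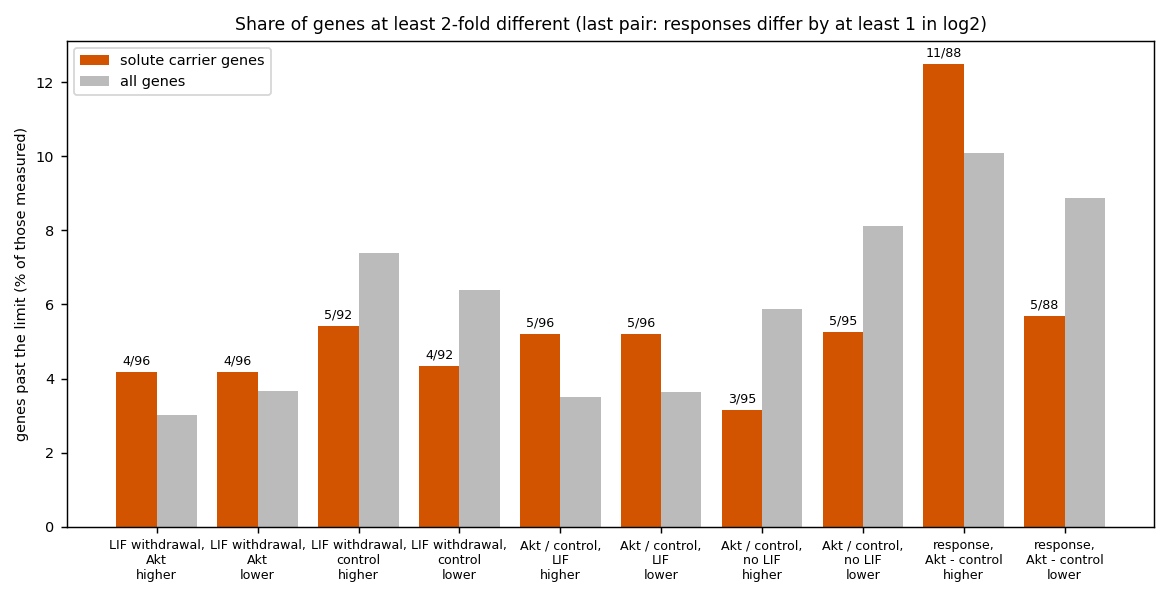
Share of measured genes past the limit, in percent, for solute carrier genes (orange, with the number past the limit over the number measured) and for all genes on the array, members included (grey), by comparison and direction. The orange bars lie between 3.16% and 5.43% in the 4 comparisons, where the grey bars lie between 3.01% and 8.12%.

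The LIF term common to the lines, and the Akt term common to the media, were tested with limma over 6258 genes. No member passed the adjusted p threshold of 0.05 for LIF withdrawal over both lines, where limma called 0.144% of all genes higher and 0.16% lower, or for Akt over both media, where it called 0.16% higher and 0.463% lower. At an unadjusted p under 0.05, 2 members were higher and 4 lower for LIF withdrawal, and 4 higher and 4 lower for Akt. These are 2 to 4 of 100 members in each direction, beside 4.79% and 4.52% of all genes for LIF withdrawal and 4.11% and 5.53% for Akt. Slco5a1 had the smallest p of any member for both terms. Its log2 difference was 1.45 ± 0.34 for LIF withdrawal (SE, limma adjusted p = 0.158, higher in both lines) and -1.51 ± 0.34 for Akt (SE, limma adjusted p = 0.113, lower in both media). When the fit was restricted to the 5027 genes measured on every array, the same differences had limma adjusted p-values of 0.0162 and 0.0106. Both SEs were then larger, at 0.4. The limma unadjusted p nonetheless fell from 0.00178 to 0.000272 for LIF withdrawal and from 0.00133 to 0.000143 for Akt. With the same differences and larger SEs, the smaller p-values come from the variance prior shared over genes, not from a stronger difference. Under that restriction limma called 2.35% of all genes for LIF withdrawal and 2.69% for Akt, and 1 of 72 members (1.39%) for each term. Over the settings tried, the lowest limma adjusted p of any member ranged up to 0.597 for LIF withdrawal and 0.517 for Akt. The error behind these p-values pools the difference between the responses of the lines with a variance shared by all fitted genes. In the main fit the shared part had 8.69 degrees of freedom and the gene's own part 1. No replicate cultures were included.

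Slco5a1 encodes a member of the organic anion transporting polypeptides. It had a normalized intensity of 44.7 without LIF and 20.9 with it in Akt cells, and 162.9 without LIF and 46.8 with it in control cells. The array of control cells without LIF was highest, and Akt cells without LIF and control cells with LIF were alike. The summed mesoderm markers were also highest in control cells without LIF and lowest in Akt cells with LIF, at 2230.2 and 103.2. The trophoblast sum had the same extremes, at 1713.7 and 607.2, but Tfap2c of that list went the other way, at 225.7 and 402.9. The fibroblast sum was highest in control cells without LIF too, at 862.9, but Thy1 of that list was lowest there, at 27.6. The part of these markers in the Slco5a1 result was not tested. Among the other 16 genes for carriers of bile salts and organic ions, 7 were above the floor on some array and none was 2-fold different. Slc22a17, which encodes a receptor-like member that binds lipocalin, had 46.4 and 25.9 in Akt cells without and with LIF, and 29.8 and 36.2 in control cells without and with LIF. Slc22a18, an imprinted gene, had 44.7 and 40.4 in Akt cells against 29.6 and 26.4 in control cells in the same media, so that both Akt arrays were above both control arrays. Slco3a1, another organic anion transporter gene, was at the floor in both Akt arrays and at 20 and 16 in control cells without and with LIF.

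Amino acid and peptide carriers formed the largest class, with 24 genes, of which 17 were above the floor on some array. Their median log2 difference after LIF withdrawal was 0.27 in Akt cells (17 genes) and -0.04 in control cells (13 genes), beside 0.01 and -0.03 for all genes. Slc6a15, a sodium-dependent carrier of neutral amino acids, had 61.9 without LIF and 29.5 with it in Akt cells, and 66.8 without LIF and 143.7 with it in control cells. Its LIF responses thus pointed in opposite directions, with the arrays without LIF lying between those with LIF. With a floor at the 60th percentile its difference in Akt cells was 0.37 in log2. Slc7a3, a carrier of arginine and lysine, had 145.2 and 170.7 in Akt cells without and with LIF, and 92.3 and 280.2 in control cells without and with LIF. The control arrays were its lowest and highest.

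Slc7a6 and Slc7a7 encode the light subunits that pair with Slc3a2 to exchange cationic for neutral amino acids. Slc7a6 was at 23 in Akt cells without LIF and at the floor in Akt cells with LIF, and at 39.8 and 33.4 in control cells without and with LIF, above both Akt arrays. A second probe set of Slc7a6 had a log2 LIF response of -0.06 in control cells, of the opposite sign to the 0.25 of the first. Between Akt and control cells with LIF that second probe set had a log2 difference of -0.225, against -1.08 for the first. Slc7a7 had 448.2 and 264.6 in Akt cells and 291.7 and 347.9 in control cells, without and with LIF, and was highest in Akt cells without LIF. Slc3a1, the heavy subunit of the cystine transporter of kidney and gut, had 28.3 in Akt cells without LIF, the floor in Akt cells with LIF, and 24.6 and 20.1 in control cells. Slc1a4, a neutral amino acid exchanger, had 145.7 and 136.0 in Akt cells without and with LIF, and 145.4 and 87.5 in control cells without and with LIF, so that control cells with LIF stood below the other arrays. Among the excluded amino acid carriers, Slc3a2 had log2 differences of 0.51 and 0.55 and Slc7a5 of 0.57 and 0.21 between Akt and control cells without and with LIF.

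The family Slc25, of mitochondrial carriers and the peroxisomal carrier Slc25a17, numbered 20 genes, of which 18 were above the floor on some array and 13 on all 4. Their median difference between Akt and control cells was 0.29 without LIF and 0.30 with LIF, beside 0.06 and 0.01 for all genes. Leaving out Slc25a17, a choice made after values were seen, gave 0.25 and 0.24. Slc25a36, a carrier of pyrimidine nucleotides, had 508.2 without LIF and 1091.0 with it in Akt cells, and 389.6 without LIF and 498.8 with it in control cells. Slc25a20, which brings acylcarnitines into mitochondria for fatty acid oxidation, had 109.0 and 224.4 in Akt cells and 66.8 and 130.5 in control cells, without and with LIF. For both genes, Akt cells with LIF were highest and control cells without LIF lowest, and each line was lower without LIF than with it. This pair of extremes was shared by 13 of the 72 members above the floor on all arrays (18.1%), 5 of them Slc25 genes, beside 16.9% of all such genes. Slc25a20 had a log2 difference of -1.0 ± 0.32 for LIF withdrawal over both lines (SE, limma adjusted p = 0.341).

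The promoters of those carriers are shown because these were the Slc25 genes at least 2-fold lower without LIF in Akt cells. Among the 72 members above the floor on all arrays, 23 were highest in control cells without LIF. From these, the promoter of the zinc transporter gene Slc30a3 was added by choice and not by a rule. Each is the stretch of 250 bases before a RefSeq start in GRCm38.p6, read 5′ to 3′ on the strand of the gene, with motif matches in capitals.
Slc25a36 (chr9:97111042-97111291, minus strand): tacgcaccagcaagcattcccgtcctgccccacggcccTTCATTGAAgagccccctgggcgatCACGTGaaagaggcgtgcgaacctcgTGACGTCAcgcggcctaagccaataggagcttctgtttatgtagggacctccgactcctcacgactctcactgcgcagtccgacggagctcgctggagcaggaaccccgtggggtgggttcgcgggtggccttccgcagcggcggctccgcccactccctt
Slc25a20 (chr9:108661886-108662135, plus strand): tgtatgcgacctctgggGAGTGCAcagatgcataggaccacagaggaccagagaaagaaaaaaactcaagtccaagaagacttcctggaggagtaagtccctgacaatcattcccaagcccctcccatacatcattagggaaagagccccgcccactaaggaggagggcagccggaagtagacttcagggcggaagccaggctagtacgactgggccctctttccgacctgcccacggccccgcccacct
Slc30a3 (chr5:31108245-31108494, minus strand): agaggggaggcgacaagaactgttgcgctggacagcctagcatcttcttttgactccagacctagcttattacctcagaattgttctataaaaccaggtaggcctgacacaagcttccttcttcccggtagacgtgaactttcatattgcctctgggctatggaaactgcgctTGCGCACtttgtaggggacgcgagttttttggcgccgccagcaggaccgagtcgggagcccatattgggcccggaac
In Slc25a36 the capitals mark a STAT motif (TTCNNNGAA), an E-box (CACGTG) and a cyclic AMP response element (TGACGTCA), in that order. In the other windows they mark a metal response motif (TGCACNC or TGCGCNC, on either strand). No matches overlap in these windows, and a second start of Slc30a3 had none.

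Motifs were searched on both strands in 32851 such windows, 163 of them for 113 of the 140 members. The STAT motif was in 7.02% of all windows and in 3.07% of the windows of members. The E-box was in 6.02% of all and 12.3% of the windows of members, which belong to 19 genes. The metal response motif was in 21.4% and 24.5%, the cyclic AMP response element in 1.55% and 1.23%, a forkhead motif (GTAAACA) in 3.17% and 2.45%, and an amino acid response motif (TGATGNAA) in 3.45% and 3.68%. These are matches of letters, given as a description, and windows of alternative starts of a gene can overlap.

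Slc25a15, which carries ornithine for the urea cycle, had 249.6 and 238.2 in Akt cells without and with LIF, and 86.0 and 201.5 in control cells without and with LIF. Control cells without LIF stood below the other 3 arrays. Slc25a14, an uncoupling protein homologue, was at 43 in control cells without LIF and at the floor on the other arrays. Slc25a3, the mitochondrial phosphate carrier, was at the floor only in control cells with LIF, by a single probe set. Slc25a4, an ADP/ATP carrier, had log2 differences of at most 0.42 in size in the 4 comparisons.

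Among 9 genes for nucleoside, vitamin and haem carriers, 8 were above the floor on some array. Slc29a1, an equilibrative nucleoside transporter, had 169.6 without LIF and 227.9 with it in Akt cells, and 76.4 without LIF and 180.2 with it in control cells, with control cells without LIF lowest. A second, dimmer probe set of Slc29a1 had log2 LIF responses of 0.49 in Akt cells and 0.16 in control cells, of the opposite sign to the -0.43 and -1.24 of the first, and the mean of both gave -0.54 in control cells.

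The folate genes were both lowest in Akt cells with LIF. Slc19a1, the reduced folate carrier, had 69.0 and 40.9 in Akt cells and 52.5 and 87.1 in control cells, without and with LIF. Slc46a1, the proton-coupled folate transporter, had 36.8 and 17.5 in Akt cells and 38.3 and 35.3 in control cells. A second probe set of Slc19a1 gave 0.16 in log2 between Akt and control cells with LIF and -0.21 for the LIF response of Akt cells, of the opposite sign to the -1.09 and 0.75 of the first. Slc48a1, which exports haem from endosomes, had 43.4 and 36.2 in Akt cells without and with LIF, the floor in control cells without LIF and 24.6 in control cells with LIF, so that Akt cells were above control cells in both media.

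Carriers of zinc, iron, copper and manganese comprised 15 genes, 14 of them above the floor on some array and 12 on all 4. Their median LIF response was 0.03 in Akt cells and 0.33 in control cells. Slc30a3, which loads zinc into vesicles, had 147.4 without LIF and 189.4 with it in Akt cells, and 299.4 without LIF and 131.0 with it in control cells. Its second probe set was at the floor throughout. Slc30a4, another zinc exporter gene, had 51.1 and 51.4 in Akt cells and 38.1 and 24.4 in control cells, without and with LIF. Slc39a1, a zinc importer gene, had 104.9 and 78.1 in Akt cells and 165.2 and 101.9 in control cells, lower in Akt cells in both media. The second probe set of Slc30a4 was at the floor throughout, and that of Slc39a1 had a log2 LIF response of -0.48 in control cells, against 0.70 for the first. The 2 probe sets of Slc11a2 disagreed between Akt and control cells with LIF. The brighter, which stood for the gene, had a log2 difference of 0.55 and the other -1.67. Slc11a1, the metal transporter of macrophage phagosomes, was at 41.5 in Akt cells with LIF and at the floor on the other 3 arrays.

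For chloride, bicarbonate, sodium and protons, 9 of 13 genes were above the floor on some array. Slc12a7, a potassium-chloride cotransporter, had 76.4 without LIF and 210.3 with it in Akt cells, and 76.1 without LIF and 109.7 with it in control cells. Both lines were lower without LIF, to nearly the same value. Slc12a4, a cotransporter of the same family, had 43.3 and 71.4 in Akt cells and 51.2 and 50 in control cells, and Slc4a3, an anion exchanger, had 78.8 and 101.4 in Akt cells and 68.3 and 70.3 in control cells. Akt cells with LIF were the highest array for these 3 genes. Slc4a5, a sodium bicarbonate cotransporter, had 22.2 and 38.2 in Akt cells without and with LIF, 20.3 in control cells without LIF and the floor in control cells with LIF.

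Of 11 genes for carriers of neurotransmitters, choline, creatine and taurine, 8 were above the floor on all 4 arrays. Slc6a6, the taurine transporter, had 463.3 and 432.3 in Akt cells without and with LIF, and 965.1 and 451.0 in control cells without and with LIF, so that control cells without LIF stood above the other arrays. A second probe set of Slc6a6 had a log2 LIF response of -0.47 in control cells, the opposite sign to 1.10. Between Akt and control cells without LIF that second probe set had a log2 difference of -0.15, against -1.06 for the first. Slc44a1, a choline transporter, had 69.3 and 97.3 in Akt cells and 200 and 138.5 in control cells, without and with LIF. Both Akt arrays were below both control arrays, with a log2 difference of -1.02 for Akt over both media (limma adjusted p = 0.353). Slc6a8, which imports creatine, had 130.8 and 173.2 in Akt cells and 90.2 and 133.2 in control cells, and Slc44a2 had 42.3 and 24.8 in Akt cells and 44.8 and 41.4 in control cells.

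The sugar and polyol carriers that remained after Slc2a1 and Slc2a3 were left out numbered 8, and 5 were above the floor on some array, none of them 2-fold different. Slc50a1, a glucose carrier, had 43 and 54.3 in Akt cells and 30.6 and 42.2 in control cells, without and with LIF. Slc2a8 had 58.6 and 67.4 in Akt cells and 46.9 and 70.7 in control cells. Slc2a5, the fructose transporter, was above the floor in Akt cells at 15.9 and 23.9 and at the floor in control cells, and Slc37a4, which carries glucose 6-phosphate, was at the floor in Akt cells and at 16.6 and 17.1 in control cells. The excluded Slc2a3 was 4.4-fold lower in Akt than in control cells without LIF, and Slc2a1 was 1.96-fold lower.

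Of 7 carboxylate and fatty acid carrier genes, 3 were above the floor on some array. Slc16a1, the main carrier of lactate and pyruvate, had 38.6 and 27.8 in Akt cells and 21.5 and 42.3 in control cells, without and with LIF. Slc16a8, a lactate carrier, had 30.9 and 23.5 in Akt cells and 23.7 and 32.6 in control cells, and Slc27a4, which handles fatty acids, had 19.8 and 18.9 in Akt cells and at most 17.2 in control cells. Both lactate carriers were higher without LIF in Akt cells and lower without it in control cells, each by less than 2-fold. Emb, a partner that brings Slc16a1 to the membrane, had the same signs with larger sizes, at 210.6 and 74.0 in Akt cells and 67.1 and 211.3 in control cells, without and with LIF, while Bsg, the other partner, had log2 differences of 0.37 and 0.30 for LIF withdrawal in Akt and control cells.

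The remaining classes held few measured genes. Slc20a1, a phosphate importer, had 324.8 and 414.8 in Akt cells and 295.7 and 477.7 in control cells, without and with LIF, and was lower without LIF in both lines by less than 2-fold. Slc26a2, a sulfate carrier, had 26.7 in Akt cells without LIF, the floor in Akt cells with LIF, and 22 and 27.8 in control cells. Slc35a1, which carries CMP-sialic acid into the Golgi, had 83.4 and 114.7 in Akt cells and 67.5 and 76.2 in control cells. Slc35a2, for UDP-galactose, had 19.2 and 16.9 in Akt cells and 17.7 and 20.4 in control cells, and Slc33a1, for acetyl-CoA, had 21.0 and 19.9 in Akt cells, 20.1 in control cells without LIF and the floor in control cells with LIF. Slc41a1, a magnesium carrier, had 42.7 and 39.9 in Akt cells and 42.7 and 50.5 in control cells, and Slc66a2 had 47.1 and 72.3 in Akt cells and 59.6 and 73.0 in control cells.

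Slc9a3r1 encodes a PDZ scaffold that anchors transporters under the membrane and is not itself a carrier. It had 343.0 without LIF and 131.1 with it in Akt cells, and 326.2 without LIF and 208.5 with it in control cells. Both arrays without LIF were above both with LIF, with a log2 difference of 1.02 (limma adjusted p = 0.373). Slc9a3r2, a related scaffold, had 23.1 and the floor in Akt cells without and with LIF, and 22.4 and 24.6 in control cells, and the adaptor gene Slc4a1ap had 57.2 and 69.9 in Akt cells and 47.6 and 61.4 in control cells.

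**Figure D3:**
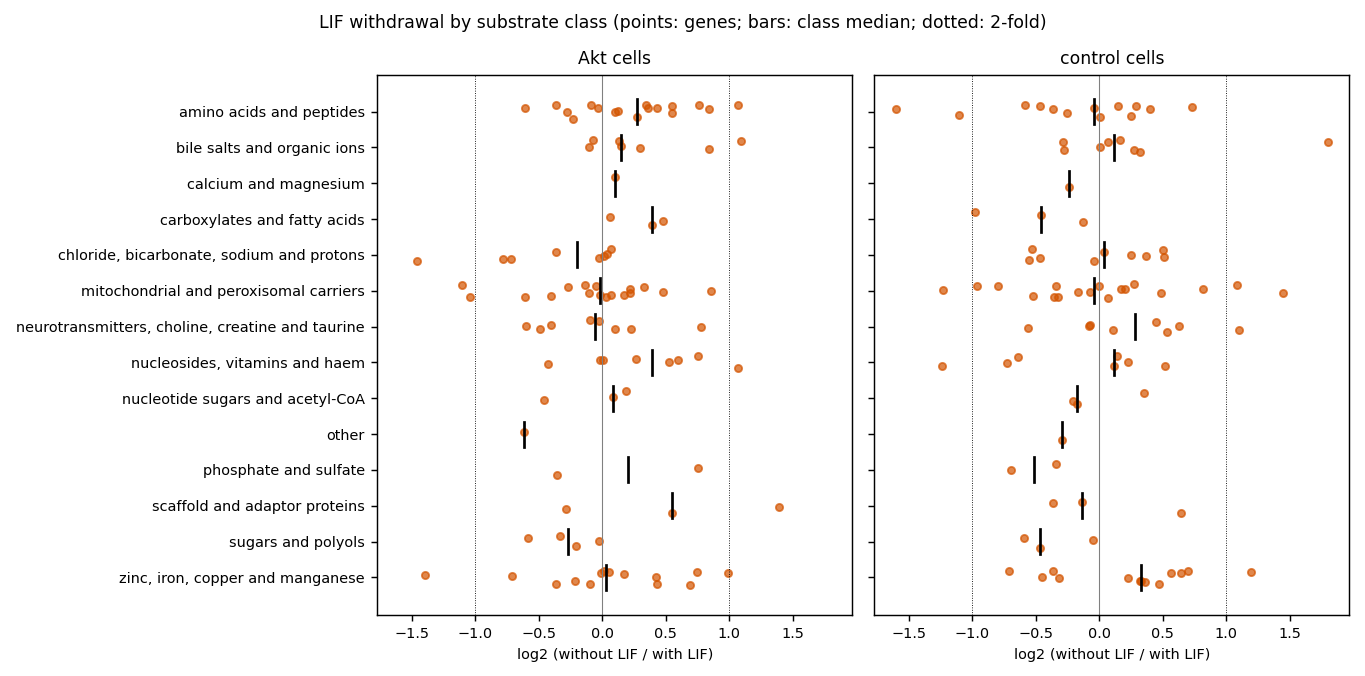
Log2 difference of cells without LIF over cells with LIF by substrate class, in Akt cells (left) and control cells (right). Each point is a gene with at least 1 of the 2 arrays above the floor, black bars are class medians, and dotted lines mark 2-fold; the amino acid class has a median of 0.27 in Akt cells and -0.04 in control cells.

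The LIF responses of the lines, which share no array, were set side by side for the 88 members measured in both. Of 4 members higher in each line, Slco5a1 was the shared gene, which is 25% of either list, where 46 of all genes were shared, 26.3% of the Akt list and 12.2% of the control list. Of 3 lower in Akt cells and 4 lower in control cells, none was shared, where 26.2% and 14.2% of all such genes were. Slc25a20 missed being shared by the limit alone, at 2.06-fold lower in Akt cells and 1.95-fold lower in control cells. Slc6a15 was higher in Akt cells and lower in control cells. Across the 72 members above the floor on all arrays, Pearson's r between the responses was 0.177 and Spearman's rho 0.133, beside 0.194 and 0.125 over 5027 genes, and genes are not independent replicates.

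The response in Akt cells exceeded that in control cells by at least 1 in log2 for 11 members, beside 10.1% of all genes, and was below it by as much for 5, beside 8.87%. Those 11 are 12.5% of the members measured and the 5 are 5.68%. Scaled to the hybridization controls the counts were 6 and 7 of 89, beside 7.68% and 11% of all genes. Slc6a15 (2.18), Slc19a1 (1.48), Slc16a1 (1.45), Slc39a6 (1.44) and Slc7a3 (1.37) led the first group, and Slc30a3 (-1.55) and Slc4a5 (-1.15) the second. This difference has no residual error with 4 arrays and was not tested.

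**Figure D4:**
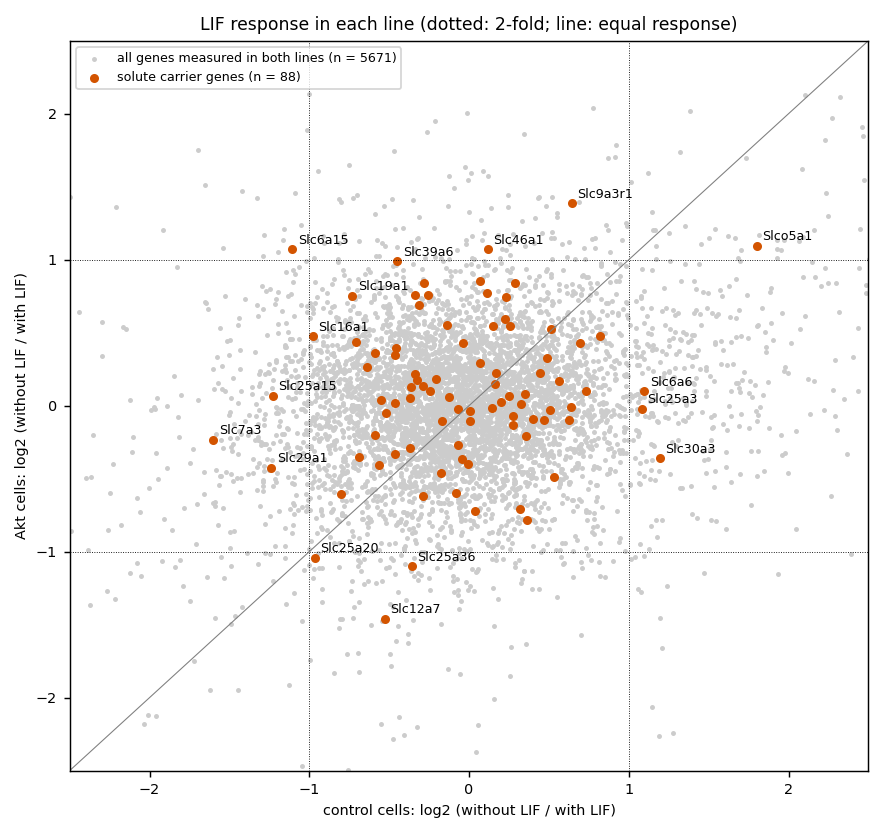
Log2 LIF response (without LIF over with LIF) in Akt cells on the vertical axis against that in control cells on the horizontal axis, for 88 solute carrier genes (orange) and 5671 genes, members included (grey, with 52 beyond the axes). Dotted lines mark 2-fold and the diagonal an equal response; Slco5a1 lies at upper right and Slc6a15 at upper left.

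On an array basis, control cells without LIF were the highest array for 31.9% of the 72 members and the lowest for 33.3%, against 29.8% and 38.1% of all genes. Akt cells with LIF were the lowest for 33.3% of members as well, against 25.6% of all genes, and Akt cells without LIF for 9.72%, against 15.8%. The closest arrays for these members were Akt cells without LIF and control cells with LIF, with an SD of log2 differences of 0.395 (0.408 over 5027 genes), and the most distant were Akt cells with LIF and control cells without LIF, at 0.781 (0.871 over those genes). Probe sets of the same member spread around its mean with an SD between 0.374 and 0.591 in log2 over the 4 comparisons, for 11 to 14 genes.

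Genes for pumps that build the gradients, and for partners of carriers, were described beside the members. Of 30 listed genes, 22 were on the array and 17 were measured in each comparison. After LIF withdrawal 1 of the 17 was higher and 2 were lower in Akt cells, beside 3.01% and 3.65% of all genes. In control cells none was higher and 3 were lower, beside 7.39% and 6.4%. Between Akt and control cells, 2 were higher and 2 lower with LIF, beside 3.5% and 3.64%. Without LIF 1 was higher and none lower, beside 5.87% and 8.12%. Atp1b3, a subunit of the sodium pump, had 1091 and 1104 in Akt cells and 1115.1 and 1098 in control cells, the same to within 0.03 in log2. Sgk1, a kinase that regulates sodium transport, was at 353.5 and 361.6 in Akt cells and at 211.4 and 839.7 in control cells, without and with LIF, with control cells with LIF highest.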

How the data were processed

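The deposited table holds 1 intensity per probe set for 4 arrays on a linear scale, as the values show. The sources used here do not give the software, scaling or genome build that the authors used. After 66 array controls were set aside, the intensities of 12422 probe sets were quantile normalized (limma 3.58.1, R 4.3.3), floored at the 40th percentile and taken to log2. The probe set with the highest mean stood for a gene. Of 12422, the platform annotation gave 10833 probe sets 1 symbol, 396 several and 1193 none; symbols were updated through RefSeq (GRCm38.p6), which held all 140 members. Substrate classes follow family names; 3 assignments (Slc26a1, Slc26a2 and Slc4a1ap) were corrected after names were matched. In limma (lmFit, eBayes, Benjamini-Hochberg) terms for line and LIF left 1 residual and 8.69 prior degrees of freedom. The steps were tested on simulated data with the noise of the closest arrays (SD of log2 differences 0.408), where the control arrays have 0.714. For LIF withdrawal limma called 72% of simulated 2-fold and 100% of 4-fold changes, and 8 of 6046 unchanged genes. The 2-fold count in control cells called 47% and 97%, and 73 of 6058 unchanged genes. Changes were placed only in genes well above the floor. Members and lists were chosen with earlier results of these data known. Named with all 4 values were the members with the largest span in each class (up to 4, or 6 for amino acids), and others only with a fold. Slc11a2, Slc25a4, Emb, Bsg, Atp1b3, Sgk1, single cell type markers and genes at the floor were named after values were seen. With 1 array per group, precision is limited by the number of arrays. Alternatives were another scaling, floor, probe set rule, fold limit, variance prior or filter.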

Additional observations from a re-analysis of the deposited data

Results flagged for a closer look

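For 15 members the LIF responses of the lines had opposite signs and differed by at least 1 in log2. They are 17% of the 88 members measured in both lines, beside 14.1% of all 5671 such genes. The difference was not tested, since each line has 1 array per medium. Taken as Akt minus control, the difference was 2.18 for Slc6a15, 1.48 for Slc19a1, 1.45 for Slc16a1, 1.44 for Slc39a6, 1.3 for Slc25a15, 1.14 for Slc30a1, 1.12 for Slc22a17, 1.1 for Slc26a2, 1.01 for Slc7a7 and 1.0 for Slc39a7. It was -1.02 for Slc44a1, -1.03 for Slc30a9, -1.1 for Slc25a3, -1.15 for Slc4a5 and -1.55 for Slc30a3. In Slc25a15 the response in Akt cells was 0.07, and in Slc25a3 it was -0.02, so that their opposite signs rest on values near 0.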

How the results depend on the processing

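The limma terms compare the media within each line and the lines within each medium. No paired analysis was possible beyond this, since each group holds 1 array and the labels number no replicates. Of the 35 gene values of at least 2-fold, none turned its sign under any scaling, floor or probe set rule in which it could be measured. For these genes no rule used a second probe set alone, so the rules could not show signs that differ between probe sets. In control cells after LIF withdrawal, second probe sets had the opposite sign for Slc6a6 (-0.47 against 1.10) and Slc29a1 (0.16 against -1.24). For Akt against control cells with LIF, that of Slc19a1 did too (0.16 against -1.09). Of the 35 values, 33 stayed past the limit with 2% trimmed mean scaling, 29 with hybridization control scaling and 26 with the mean of all probe sets. With the floor at its highest setting, the 60th percentile, 19 of the 22 still measured stayed past it. Counts of members higher and lower moved most with the limit and the floor. At a 1.5-fold limit they were 15 and 12 for LIF withdrawal in Akt cells (beside 10.8% and 10.7% of all genes), 11 and 13 in control cells (16.4% and 17.8%), 15 and 18 for Akt against control cells with LIF (11.5% and 11.8%), 15 and 8 without LIF (16.7% and 15%), and 22 and 13 for the difference of the responses (22.4% and 19.1%). The 18 are 18.8% of 96 members and the 8 are 8.42% of 95. With a floor at the 20th percentile they were 14 and 8 of 122 members (6.46% and 6.59% of all genes), 10 and 7 of 127 (9.71% and 8.77%), 12 and 18 of 127 (6.43% and 7.09%), 10 and 11 of 124 (8.88% and 10.4%), and 21 and 13 of 118 (13.6% and 13.0%) in the same order. There the 14 are 11.5% and the 18 are 14.2% of members, above the share of all genes, and this was not tested. When the 60th percentile was the floor, fewer members were measured. After LIF withdrawal 1 of 53 was higher in Akt cells and 3 of 53 in control cells (beside 1.63% and 6.88% of all genes). For Akt against control cells with LIF, 1 of 53 was higher and 1 lower (2.57% and 2.48%). For the difference of the responses the counts were 7 and 2 of 50, or 14% and 4% (beside 8.55% and 7.03%). With hybridization control scaling, 1 of 96 was higher after LIF withdrawal in Akt cells (beside 1.86% of all genes). In that setting 3 of 96 were lower in Akt than in control cells with LIF (beside 2.83%). For the difference of the responses, 6 of 89 exceeded the limit upward (beside 7.68%). With the mean of all probe sets, 3 of 92 members were higher after LIF withdrawal in control cells (beside 6.38% of all genes). Lower in Akt than in control cells were 3 of 96 with LIF (beside 2.96%) and 3 of 95 without LIF (beside 6.79%). Limma called 1 member, Slco5a1, for LIF withdrawal and for Akt when fitted on genes above the floor on all 4 arrays, and 0 under the other settings. Under those other settings it called at most 0.511% of all genes for LIF withdrawal and 1.23% for Akt. With hybridization control scaling or the floor at the 60th percentile it called 0% of all genes for either term, so the 0 members have that background beside them. Normalizing the 3 arrays other than control cells without LIF alone, an alternative chosen after seeing the data, left the counts at 4 and 4 for LIF withdrawal in Akt cells and 5 and 5 for Akt against control cells with LIF. Many members lie near the floor, where the signal over background limits any difference.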
